A study of Mus musculus with 2 samples.

Results

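Translation initiation and elongation factors are the proteins that bring a ribosome to the start codon of an mRNA and then move it along the coding sequence. The genes described here were chosen by name alone: probe sets with exactly 1 platform gene symbol starting Eif1, Eif2, Eif3, Eif4, Eif5, Eif6, Eef1 or Eef2, with 1 probe set per gene, that with the highest mean intensity over both arrays. The rule found 155 probe sets of 58 genes among 45101 probe sets and 18193 genes with a probe set of 1 symbol. A further 8 probe sets carry several symbols, among them those of Eif3j1, Eif4ebp3 and Eef1g, and the rule leaves them out. Eif1, Eif2s1 and Eif4g1 are not analysed here.

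The data are 2 expression arrays of total RNA from mouse cells, 1 per group. The first sample is labelled lymphoma cells in medium that contains serum, and the second lymphoma cells in co-culture with endothelial cells, which form the inner lining of vessels. The comparison sets gene expression in the co-culture against that in the serum culture. The labels do not give a line, genotype, time of culture, the origin of the endothelial cells, the medium of the co-culture or any separation of the cell types before RNA was taken. The presence of endothelial cells and a change of medium thus cannot be told apart.

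Several facts of these arrays touch every value that follows. An intensity of 44.3, the median over both arrays together, was taken as the floor, and lower values were set to it before log2 was taken. A gene is called measured where it lies above that floor on at least 1 array, which held for 11542 genes. Of 20 listed endothelial genes 3 were measured (Egfl7, Eng and Flt1), and the summed intensity of the list was 862 in serum culture and 999 in co-culture. The endothelial genes Pecam1 and Cdh5 lay below the floor on both. Of 10 B lymphocyte genes with a probe set 4 were measured. In serum culture and co-culture Cd74 had 726 and 477, Ebf1 161 and 85.3, Ighm 103 and 7.24, and Blk 27.0 and 126. The summed intensity of all 10, those below the floor included, was 1104 and 781. The B cell genes Cd79a and Pax5 and the leukocyte gene Ptprc were among those below the floor on both, although the samples are labelled lymphoma. Of 7 T lymphocyte genes with a probe set 1 was measured, and of 7 fibroblast genes 4 were. The summed intensities, genes below the floor included, were 122 and 166 for the T lymphocyte list and 315 and 352 for the fibroblast list. The 3′ to 5′ intensity ratio of the beta-actin control, which is higher where RNA is shorter, was 3.56 in serum culture and 2.05 in co-culture. Gapdh control probes gave 2.54 in serum culture against 1.88 in co-culture. The widest gap came from control probes for transferrin receptor mRNA, with 13.2 in serum culture against 5.03 in co-culture. Each of these controls thus had its higher ratio on the serum array. The part of cell mixture and RNA length in the differences below was not tested. In RNA from a whole culture, fewer cells of a type and less RNA per cell cannot be told apart.

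Initiation begins when eIF2 with GTP delivers the initiator tRNA to the small ribosomal subunit, which eIF1, eIF1A, eIF3 and eIF5 prepare for scanning. The eIF4F complex, made of the cap-binding eIF4E, the scaffold eIF4G and the helicase eIF4A, brings that subunit to the capped end of the mRNA. The pathway is held back at 2 known points: kinases phosphorylate eIF2 and so block its recycling by eIF2B, and 4E-binding proteins keep eIF4E from eIF4G. In elongation, eEF1A brings aminoacyl-tRNAs to the ribosome and eEF2 moves the ribosome on by a codon, and eEF2 kinase inhibits eEF2. Many mRNAs of this machinery start with a run of pyrimidines through which growth signals control their translation. Several of its genes, Eif4e among them, are known targets of the transcription factor MYC.

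The sequences at the start of these genes are shown because such pyrimidine runs are a known feature of the family that the choice by name did not use. RefSeq start sequences of build GRCm38.p6, which run from 250 bases before to 50 bases after a transcript start, matched 47 of the 58 genes, 7 of them with several starts. In a window of 30 bases, 15 on each side of the start, 12 of the 47 genes (25.5%) held a run of at least 8 C or T. Of all 27025 genes with such a sequence 13.9% held one, and of the 17492 coding ones 14.0%. Bases before the annotated start are not part of that transcript. A run counted here thus need not open the mRNA, and the run of Eif2b5 lies mostly before the start. The runs are shown in capitals, 5′ to 3′ on the strand of the gene, for the 2 factors of eIF3 that hold one, for the X and Y copies of the eIF2 gamma subunit, for a subunit of eIF2B and for the elongation factor eEF1A1.
Eif3f, chr7:108934400-108934429, plus strand: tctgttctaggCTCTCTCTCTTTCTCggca
Eif3l, chr15:79075208-79075237, plus strand: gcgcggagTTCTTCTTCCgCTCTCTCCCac
Eif2s3x, chrX:94212637-94212666, minus strand: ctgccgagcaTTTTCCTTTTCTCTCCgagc
Eif2s3y, chrY:1010580-1010609, plus strand: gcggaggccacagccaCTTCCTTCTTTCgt
Eif2b5, chr16:20498802-20498831, plus strand: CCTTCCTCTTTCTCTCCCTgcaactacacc
Eef1a1, chr9:78481710-78481739, minus strand: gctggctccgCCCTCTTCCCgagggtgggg

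The hexamer CACGTG, the E-box that MYC and related factors bind, was present in the 300-base sequence of 12 of the 47 genes (25.5%), against 8.09% of all genes and 8.91% of coding ones. It reads the same on both strands. Examples that lie wholly before the start are shown with 10 bases on each side, for the cap-binding protein, the helicase eIF4A1, the hypusine-bearing eIF5A2, eEF2 and its kinase. A match is a description of these letters and not a bound site.
Eif4e, chr3:138527194-138527219, plus strand: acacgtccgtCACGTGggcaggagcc
Eif4a1, chr11:69672597-69672622, minus strand: atcgcctccgCACGTGtaaaggtgct
Eif5a2, chr3:28781150-28781175, plus strand: gggcgagcttCACGTGacggggcggg
Eef2, chr10:81176578-81176603, plus strand: ccggcgccgtCACGTGacgcacccaa
Eef2k, chr7:120842790-120842815, plus strand: cggggacggcCACGTGagcccgggcg

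The motif CCGGAAGT, which factors of the ETS family bind, was searched on both strands and found in 9 of the 47 genes (19.1%), against 4.31% of all genes and 5.69% of coding ones. It lies within the 30-base start window of the guanine nucleotide exchange factor subunits Eef1b2 and Eif2b4 and of the cap-binding paralog Eif4e2.
Eef1b2, chr1:63176816-63176845, plus strand: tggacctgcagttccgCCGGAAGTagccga
Eif2b4, chr5:31193125-31193154, minus strand: cgggacccagtgcacgCCGGAAGTtgtagt
Eif4e2, chr1:87213896-87213925, plus strand: ctgagcgcctcgccagccaaCCGGAAGTag

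Other letters searched on both strands were TGATGNAA, bound by ATF4 with a C/EBP partner, in 2 of the 47 genes (4.26% against 4.51% of all), CCAAT in 16 (34.0% against 41.1%) and AAGATGGC, a YY1 motif, in 6 (12.8% against 3.19%). The motifs were counted each on its own, and 1 gene can hold several, as Eif3f holds both a pyrimidine run and an E-box.

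None of the 57 measured factors reached a 2-fold difference between the arrays by the probe set the rule took. With a limit of 1 on the log2 scale, 0 were higher and 0 lower in co-culture, where 4.6% of all measured genes were higher and 10.1% lower. With 1 array per group no test between the cultures can be made, so these shares are a description and no p-value is given. The genes of this family were mostly bright, and bright genes differed less between the arrays. Among the 4597 genes at a mean intensity of 1000 or more, a limit set after the data were seen that 50 of the 57 factors pass, 2.07% were higher and 4.5% lower. The median log2 difference of the factors, co-culture minus serum, was -0.01, against -0.06 for all measured genes and -0.03 for the bright ones. Of the 57 factors 27 had a positive and 30 a negative difference, and 47 (82.5%) lay within 0.5 of 0, against 59.1% of all measured genes and 72.0% of the bright ones.

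**Figure D1:**
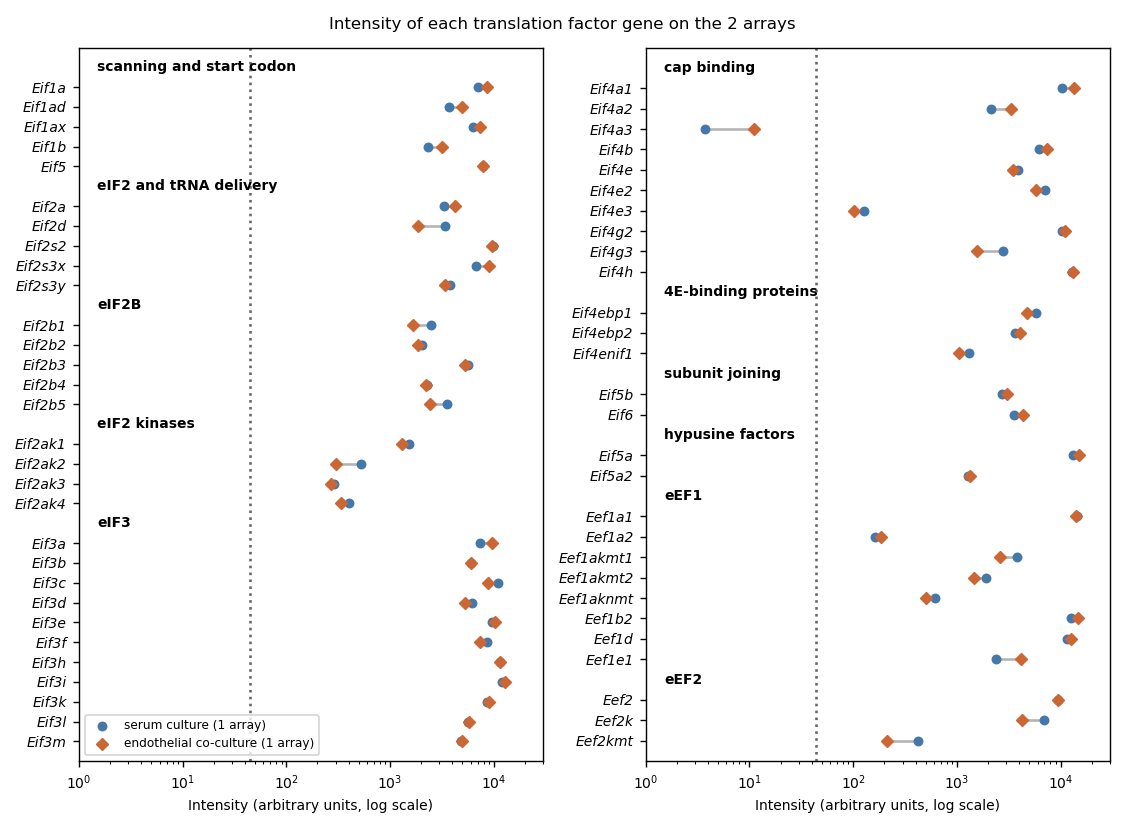
Intensity (x axis, log scale, arbitrary units) of each of the 58 genes on the array of the serum culture (blue circles) and of the endothelial co-culture (orange diamonds), grouped by role, with the floor of 44.3 as a dotted line and no error bars since each point is 1 array. The pairs of points lie close together for most genes, Eif2d, Eif4g3, Eef1e1 and Eef2kmt are further apart, and Eif4a3 is below the floor on both arrays; intensities of different genes come from different probes and are not to be set against each other.

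**Figure D2:**
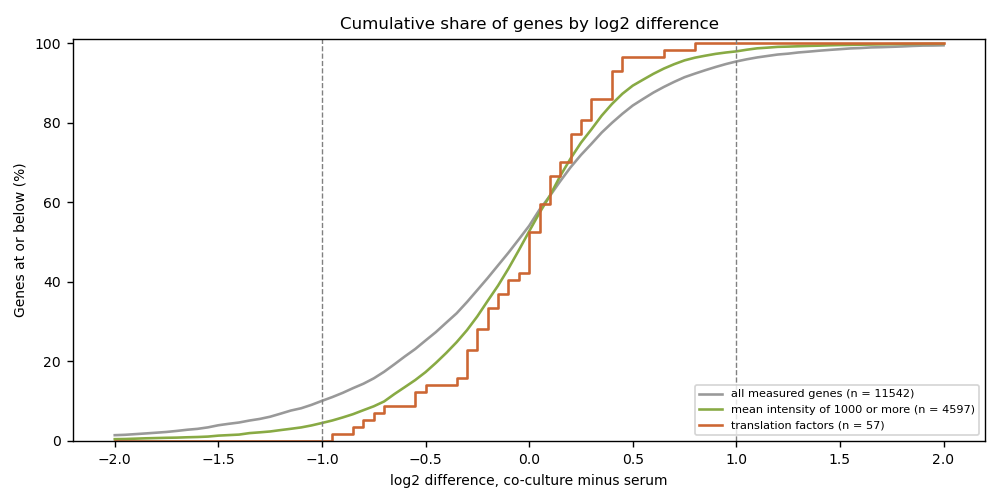
Share of genes (y axis, percent) at or below each log2 difference, co-culture minus serum (x axis), for the 57 measured translation factors (orange steps), all 11542 measured genes (grey) and the 4597 genes at a mean intensity of 1000 or more (green), with dashed lines at a 2-fold difference. The orange line reaches from -0.99 to 0.79, so none of the factors lies outside the dashed lines.

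How far a single value can be trusted was read from other probe sets of the same gene. For the 35 factors with at least 2 measured probe sets, the pooled SD of the log2 differences within a gene was 0.49, against 0.60 over 5478 genes of the array. This SD covers differences between probe sets of a gene on the same 2 arrays. It does not cover an error common to a whole array or the spread between cultures. For 22 of the 35 factors all other measured probe sets had the sign of the one used, and for 13 at least 1 did not. The same count was not made over all genes, so it cannot be read as particular to this family. Scaling to the spiked control transcripts of the array lowers every co-culture value by 0.19 on the log2 scale, so that positive differences smaller than this turn negative, among them the median of the hypusine factors eIF5A and eIF5A2 (0.14, then -0.06). Most of the differences below are smaller than this SD and are given as values only. For 25 of the 58 genes the probe set used has an identifier that marks sequence shared by several transcripts.

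Of the 5 factors of scanning and start codon choice, 4 had a positive difference and 1 a negative one. Eif1a and Eif1ax, which encode the scanning factor eIF1A, had intensities of 7134 and 6274 in serum culture and 8570 and 7451 in co-culture, differences of 0.26 and 0.25 on the log2 scale. Their other measured probe sets were positive too, between 0.06 and 0.56. All probe sets of Eif1a and that used for Eif1ax have identifiers that mark sequence shared by several transcripts. Whether these genes were read apart from each other was not tested. Without such probe sets Eif1ax had 0.53 and Eif1a had no value. Eif1b, a close relative of the start codon fidelity factor eIF1, had 2349 and 3188 (0.44), the highest difference of the group. Eif1ad, a protein with an eIF1A-like domain, had 0.41, but -0.08 by its other probe set. Eif5, the GTPase activator of eIF2, gave the lowest difference of the group, with 7972 and 7887 (-0.02). Its other probe sets ran from -0.20 to 1.34. The median over these 5 genes was 0.26, and 0.07 when scaled to the spiked controls.

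The subunits of eIF2 itself had differences of both signs. The beta subunit Eif2s2 had 9816 in serum culture and 9631 in co-culture (-0.03), with other probe sets between -0.17 and 0.31. Eif2s3x, the X-linked gene of the gamma subunit that holds GTP, had 6804 and 8943 (0.39), and its other probe sets gave 0.28 and 0.90. Its Y-linked copy Eif2s3y had 3812 and 3414 (-0.16). The copies on the X and Y chromosome thus differed in sign by the probe sets used, though by less than 2-fold each. Eif2a, which can also deliver the initiator tRNA, had 3292 and 4224 (0.36).

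Eif2d, a factor that brings tRNA to the ribosome independently of GTP, was the lowest of this group. By the probe set used it had 3430 in serum culture and 1854 in co-culture, 1.85-fold lower in co-culture (log2 difference -0.89). The other 2 bright probe sets had 1801 and 521, and 1212 and 582, so that they were 3.46-fold and 2.08-fold lower. The identifiers of these 3 probe sets mark sequence shared by several transcripts. The other 2 measured probe sets lay below the floor in serum culture and reached at most 65.2 in co-culture, which gave 0.14 and 0.56 against the floor, and without the probe sets marked as shared the value of the gene was 0.56.

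All 5 subunits of eIF2B, the exchange factor that recharges eIF2 with GTP, had negative differences by the probe sets used. The regulatory alpha subunit Eif2b1 had 2478 in serum culture and 1673 in co-culture (-0.57). The catalytic epsilon subunit Eif2b5 had 3512 and 2430 (-0.53), but a second, dim probe set was below the floor at 11.1 and then at 109, at least 2.46-fold higher. Eif2b2, Eif2b3 and Eif2b4 had -0.14, -0.11 and -0.03, and the other probe sets of Eif2b2 had -0.87 and -0.39. The median of the 5 was -0.14, and over all settings of the closing section it lay between -0.53 and 0.45. After subtraction of the median of all genes, Eif2b4 was positive at 0.03. Among all 11542 measured genes 6241 had a negative difference.

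The 4 kinases that phosphorylate eIF2 also had negative differences by the probe sets used. Eif2ak2, the PKR kinase that double-stranded RNA activates, had 525 in serum culture and 304 in co-culture (-0.79), while its other probe sets gave 0.06 and 0.21. Eif2ak4, the GCN2 kinase of amino acid lack, had 406 and 335 (-0.28), and Eif2ak3, the PERK kinase of the endoplasmic reticulum, had 286 and 268 (-0.09). Eif2ak1, the kinase of haem lack, had 1542 and 1298 (-0.25), with other probe sets from -0.69 to 0.57. Of the 4, only Eif2ak1 had a mean intensity of 1000 or more. The median of the 4 was -0.26, and over all settings of the closing section it lay between -0.45 and 0.14.

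The 11 genes of eIF3, the large scaffold that holds the small subunit and the initiation factors together, had differences of both signs near 0. They ran from -0.33 to 0.38 with a median of 0.02, and 6 were positive and 5 negative. Eif3a, the largest subunit, had the highest difference, with 7443 in serum culture and 9673 in co-culture (0.38), and its 3 other probe sets were positive, from 0.19 to 0.80. Eif3c, a core subunit that contacts eIF1 and eIF5, had the lowest, with 11074 and 8837 (-0.33), and its 3 other probe sets were negative, from -0.51 to -0.14. These core subunits of 1 complex thus had opposite signs that all their probe sets shared. Eif3b, Eif3h, Eif3l and Eif3m had differences of at most 0.03 in size, Eif3e, Eif3i and Eif3k lay between 0.07 and 0.09, and Eif3d and Eif3f had -0.22 and -0.21.

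**Figure D3:**
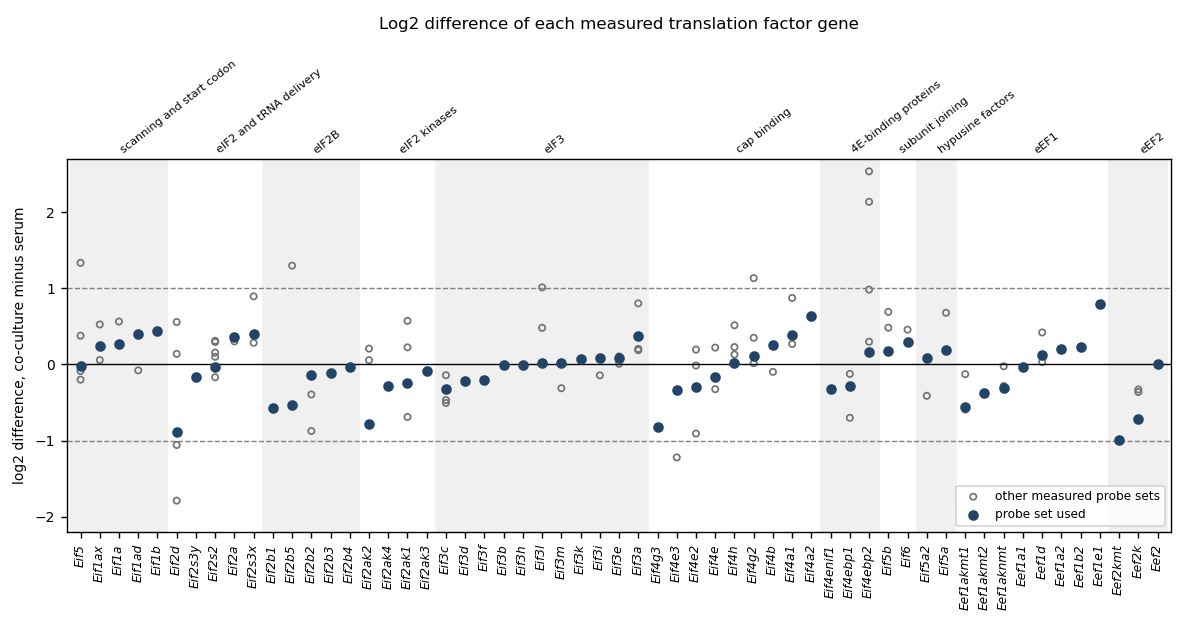
Log2 difference, co-culture minus serum (y axis), of the 57 measured genes (x axis), grouped by role in shaded bands, with the probe set used as a filled point and other measured probe sets of the gene as open points; dashed lines mark a 2-fold difference. All filled points lie between the dashed lines, those of eIF3 lie near 0, those of eIF2B and the eIF2 kinases are all below 0, and open points past the lines belong to Eif5, Eif2d, Eif2b5, Eif3l, Eif4e3, Eif4g2 and Eif4ebp2.

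In the eIF4 group the helicases Eif4a1 and Eif4a2 were higher in value and the scaffold Eif4g3 was lower. Eif4a1, the helicase of eIF4F, had 10320 in serum culture and 13492 in co-culture (0.39), and its other probe sets gave 0.27 and 0.87. Its paralog Eif4a2 had 2155 and 3352 (0.64, or 1.56-fold higher), the highest of the group, from a single probe set. Eif4b and Eif4h, which stimulate the helicase, had 0.26 and 0.02. Eif4a3, a relative that acts in the exon junction complex, was below the floor on both arrays by its only probe set of 1 symbol, at 3.76 and 11.1. A bright probe set that it shares with a gene model was lower in co-culture (-0.45).

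Eif4e, the cap-binding protein, had 3903 and 3488 (-0.16), with other probe sets at -0.32 and 0.22. Its relatives Eif4e2 and Eif4e3 had -0.29 and -0.33. For Eif4e2 the other probe sets ran from -0.91 to 0.20. The second probe set of Eif4e3 went from 103 to below the floor, at least 2.33-fold lower. The scaffold Eif4g3 had 2787 in serum culture and 1582 in co-culture, 1.76-fold lower in co-culture (-0.82), whereas Eif4g2, a scaffold without an eIF4E site, had 10229 and 11050 (0.11). The scaffold paralogs therefore differed in sign, with Eif4g3 measured by a single probe set. Another probe set of Eif4g2 went from 150 to 330, 2.19-fold higher.

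The repressors of eIF4E did not share a direction. Eif4ebp1 had 5790 in serum culture and 4773 in co-culture (-0.28), and its other probe sets were negative too (-0.12 and -0.70). Eif4ebp2 had 3668 and 4105 (0.16) by the probe set used, and all 4 others were higher as well. The difference grew as the probe sets got dimmer: 1351 and 1662 gave 0.30, 191 and 378 gave 0.98, and 70.0 and 308 gave 2.14. The dimmest went from below the floor to 257 and was at least 5.80-fold higher. Over all 5 probe sets the mean log2 difference of Eif4ebp2 was 1.22. Eif4enif1, the transporter that carries eIF4E into the nucleus, had -0.32.

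**Figure D4:**
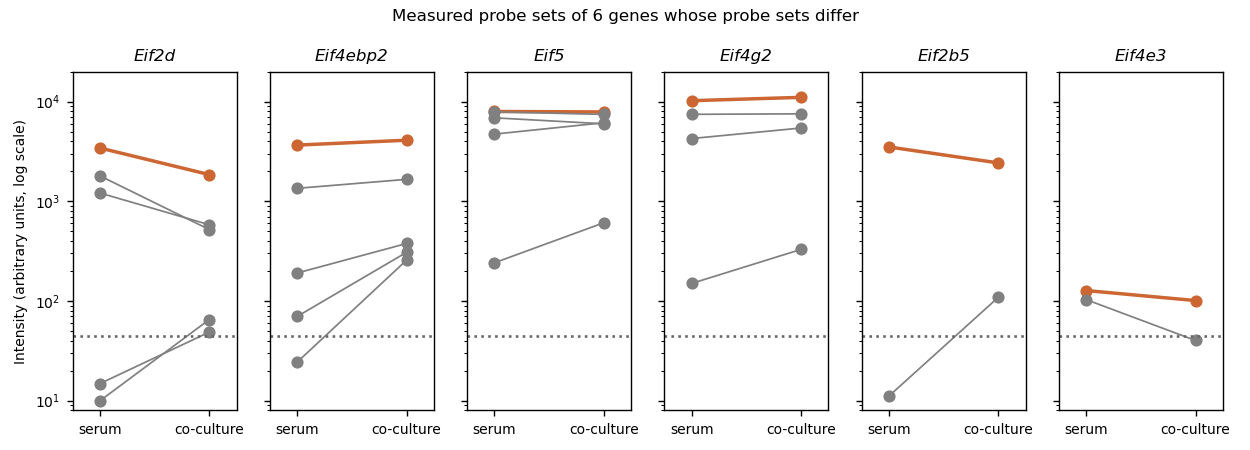
Intensity (y axis, log scale, arbitrary units) on the serum and co-culture arrays of every measured probe set of 6 genes picked because their probe sets differ, with the probe set used in orange, the others in grey and the floor of 44.3 as a dotted line. The 3 bright probe sets of Eif2d go down together, all 5 of Eif4ebp2 go up, and the steep upward lines of Eif5, Eif4g2 and Eif2b5 start at a serum intensity of 242 or lower.

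Over all 133 measured probe sets of the family, 6 passed the 2-fold limit on the higher side (5 genes) and 3 on the lower side (2 genes). Of all 21156 measured probe sets with 1 symbol, 8.16% passed it on the higher side and 8.06% on the lower. The 6 higher ones belonged to Eif4ebp2, Eif5, Eif4g2, Eif2b5 and Eif3l, and their serum intensity ran from 11.1 to 242. The 3 lower ones belonged to Eif2d and Eif4e3. None of these 9 was the probe set the rule took. Taking for each gene the probe set with the second highest mean, which 35 factors have, put 1 factor past 2-fold higher (Eif2b5) and 2 past 2-fold lower (Eif2d and Eif4e3), where 9.95% and 6.75% of all genes with such a probe set were.

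The factors of subunit joining had positive differences in every measured probe set. Eif5b, the GTPase that joins the large subunit, had 2718 in serum culture and 3068 in co-culture (0.17), with 0.48 and 0.69 by other probe sets. Eif6, which keeps free large subunits from joining too early, had 3535 and 4330 (0.29), with 0.46 by another. Eif5a, which carries the modified amino acid hypusine and helps ribosomes through difficult stretches, had 13307 and 15193 (0.19), with 0.68 by another probe set. Its paralog Eif5a2 had 1279 and 1352 (0.08), with -0.41 by another.

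The core elongation factors had close values on both arrays. Eef1a1, the main carrier of aminoacyl-tRNA, had 14352 in serum culture and 14015 in co-culture (-0.03). Eef1a2, the paralog of muscle and neurons, had 161 and 185 (0.20). The exchange factor subunits Eef1b2 and Eef1d had 0.23 and 0.12. Eef2, the translocase, had 9481 and 9558 (0.01).

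The highest and the lowest difference of the family were those of Eef1e1 and Eef2kmt. Eef1e1, a scaffold protein of the complex of aminoacyl-tRNA synthetases, had 2403 in serum culture and 4158 in co-culture, 1.73-fold higher (0.79), the highest of all 57. Eef2kmt, a methyltransferase of eEF2, had 424 and 213, 1.99-fold lower (-0.99), the lowest of all 57 and just inside the 2-fold limit, but -0.12 with the floor at percentile 75 of all values. Each of these 2 was measured by a single probe set. Eef2k, the kinase that inhibits eEF2, had 6985 and 4261, 1.64-fold lower (-0.71), and its other probe sets were lower too (-0.36 and -0.33). The identifier of the probe set used marks sequence shared by several transcripts. The others are much dimmer, at 372 and 327 in serum culture, and without shared probe sets the value was -0.36. The methyltransferases of eEF1A, Eef1akmt1, Eef1akmt2 and Eef1aknmt, had -0.56, -0.38 and -0.30, and the other probe sets of Eef1akmt1 and Eef1aknmt were negative as well.

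With a limit of 1.5-fold, 2 factors were higher (Eef1e1 and Eif4a2) and 5 lower (Eef2k, Eef2kmt, Eif2ak2, Eif2d and Eif4g3), where 12.8% of all measured genes were higher and 21.7% lower. Among the bright genes the shares were 8.03% and 13.9%. Without the probe sets marked as shared, Eef2k (-0.36) and Eif2d (0.56) did not pass this limit.

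The factors were also split, after their values were seen, into those that form the initiation and elongation complexes and those that act on them. The second set holds the 5 subunits of eIF2B, the 4 kinases of eIF2, the 4E-binding proteins with Eif4enif1, and the kinase and methyltransferases of the elongation factors. Of these 17 genes 16 had a negative difference and the exception was Eif4ebp2, with a median of -0.30. Of the 39 genes of the complexes 14 had a negative difference, with a median of 0.08. Among all 11542 measured genes 6241 had a negative difference, and among the 4597 bright ones 2422 did. Eef1e1 is in neither set. A mean intensity of 1000 or more was reached by 12 of the 17 and 37 of the 39. Under scaling to the spiked controls 17 of 17 and 26 of 39 were negative, with medians of -0.50 and -0.11, and after subtraction of the median of all genes 15 and 9 were. By the probe set with the second highest mean, where 9 and 26 genes had one, 5 and 9 were negative. The assignment is not uniform. The exchange factor eIF2B is in the second set, while the exchange factor subunits Eef1b2 (0.23) and Eef1d (0.12) are in the first. Eif5, the GTPase activator of eIF2 (-0.02), is in the first set too. The counts depend on such choices. As the split was drawn from the values, it has no test.

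Of 51 other genes of translation and its control, 47 were measured, 1 passed the 2-fold limit on the higher and 3 on the lower side, and the median was -0.10. Of all measured genes 4.6% were higher and 10.1% lower. Mcts2, a copy of the re-initiation factor gene Mcts1, had 217 in serum culture and 448 in co-culture (1.04), and 0.20 with the floor at percentile 75, where it no longer passed 2-fold. Pdcd4, an inhibitor of the helicase eIF4A, had 4916 and 2095, 2.35-fold lower (-1.23), and Tsc1, which restrains the growth kinase mTOR, had 1980 and 783 (-1.34), with -0.59 and -0.56 by other probe sets. Ddit3, a transcription factor downstream of eIF2 phosphorylation, had 2189 and 678 (-1.69), but 0.20 by another probe set. Its upstream factor Atf4 had -0.22, or 0.20 by another. Mtor itself had -0.67, with 0.15 and 0.16 by other probe sets. Pabpc1, which binds the poly(A) tail and eIF4G, had -0.03, with 0.94 by another, and the termination factor Etf1 had 0.29.

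Set beside the other gene lists of protein synthesis, the factors lay between them. Of 45 measured genes of cytosolic ribosomal proteins 41 had a positive difference, with a median of 0.13 (-0.06 when scaled to the spiked controls) and 0 past 2-fold. Of 19 measured cytosolic aminoacyl-tRNA synthetases 15 had a negative difference, with a median of -0.37 (-0.56 on that scaling), and Aars, which charges alanine tRNA, was 2.21-fold lower (5006 to 2261). Among all 11542 measured genes 5301 had a positive and 6241 a negative difference. No test of the difference between these lists is possible with 1 array per group.

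**Figure D5:**
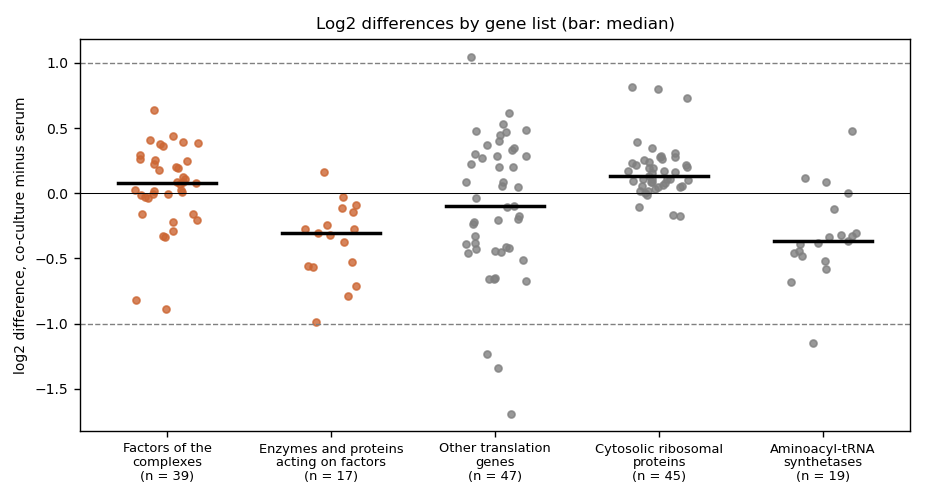
Log2 difference, co-culture minus serum (y axis), of each measured gene (points, spread sideways at random) in 5 lists, with the list median as a bar and dashed lines at a 2-fold difference; the translation factors are in orange and Eef1e1, in neither of their sets, is not drawn. The medians are 0.08 for factors of the complexes, -0.30 for those that act on them, -0.10 for other translation genes, 0.13 for ribosomal proteins and -0.37 for the synthetases.

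The values of the genes are given here by the letters found in their start sequences. The 12 genes with a pyrimidine run had a median log2 difference of -0.16 and ran from -0.53 (Eif2b5) to 0.39 (Eif2s3x). The 34 measured genes whose window held no run had a median of 0.02. The 12 genes with an E-box had a median of 0.05, from -0.71 (Eef2k) to 0.44 (Eif1b), and the 34 others -0.03. The 9 genes with CCGGAAGT had a median of -0.03 and the 37 others -0.02. For AAGATGGC the medians were 0.11 over 6 genes and -0.02 over the 40 others. No test of these gaps was made.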

How the data were processed

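Total RNA was copied from a poly(A) primer into biotin-labelled cRNA for 1-colour arrays, per the labels' protocols. The authors deposited a linear intensity per probe set. How they scanned, background-corrected and scaled the arrays is not stated in the labels used here. Both columns have a 2% trimmed mean of 500.003, as scaling to a common mean would leave. With linear intensities scaled in this way, a shift in the RNA as a whole cannot be seen.

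Probe sets with 1 platform symbol (34945, without controls) were named through the platform annotation, and 34741 took their symbol from the RefSeq table of GRCm38.p6 by gene number. The rule for the genes was applied to platform symbols, and all 58 kept them. The probe set with the highest mean stood for a gene, values were set to the floor, and log2 differences are co-culture minus serum. The fold limit was 2. A fold against the floor is written as at least that fold. The 2 samples are 1 per group, so no p-value is given, and the number of arrays limits the precision. Steps were tested on simulated data with planted changes well past 2-fold and noise smaller than the SD within a gene. That test does not cover the smaller differences given here. Every member may be named. Named whatever their values were the core factors, kinases and paralogs listed by role and, of 51 other translation genes, Pabpc1, Etf1, Mtor, Pdcd4, Atf4 and Ddit3. Named by their values were genes of both lists past 2-fold and the highest and lowest member of each role. The members and all lists were chosen with earlier results of these data known. The alternatives are in the closing section. Python 3.11.15, pandas 2.3.3 and NumPy 2.4.6 were used.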

Additional observations from a re-analysis of the deposited data

How the results depend on the processing

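The counts of 0 factors higher and 0 lower at 2-fold held with the floor at percentile 25 or 75, a pseudocount of 16, subtraction of the median of all genes, quantile normalization and removal of probe sets with shared sequence. Scaling to the spiked controls gave 3 lower (Eef2kmt, Eif2d and Eif4g3) and a median of -0.20, with the median of all genes at -0.26 and 14.2% of all genes lower. The mean over probe sets gave 1 higher, Eif4ebp2. A fold limit of 1.5 gave 2 higher and 5 lower. The probe set with the second highest mean, a setting chosen after the data were seen that covers 35 factors, gave 1 higher and 2 lower, where 9.95% and 6.75% of all genes with one were higher and lower, and it turned Ddit3 to 0.20. The median of the factors was between -0.20 and 0.06 over all settings. Why these values moved was not tested, apart from the shift of 0.19 that the spikes apply to all genes alike. Eif2d ranged from -1.79 to 0.56 and Eif2b5 from -0.72 to 1.30, and the positive values rest on probe sets that lie below the floor in serum culture, so their size is a bound. With the floor at percentile 75, Eef2kmt moved from -0.99 to -0.12 and Mcts2 from 1.04 to 0.20. No paired analysis was possible because each group has 1 array. Leaving out a replicate was not possible for the same reason. Signals near the floor limit what can be read for dim genes such as Eif4e3.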

Other observations

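Probe sets that carry several gene symbols were kept out of the comparisons, and some are of factors not described above. The probe set shared by Eif4a3 and a gene model had 5690 in serum culture and 4164 in co-culture, a log2 difference of -0.45, while the probe set of Eif4a3 alone was below the floor. The 3 probe sets shared by Eif3j1 and Eif3j2, copies of a loosely bound eIF3 subunit, were all positive, at 0.41, 0.47 and 0.68. The bright probe set of the exchange factor subunit Eef1g, shared with a gene model, had 11571 and 12207 (0.08). The probe set shared by Eif4ebp3 and Ankhd1, which a read-through transcript joins, had 2018 and 1129 (-0.84).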
